A study of Homo sapiens with 29 samples.

Results

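The 7 PC9 lines carrying AXL by transduction were divided by what their cell islands do when AXL is activated under EGFR inhibition. In 3 lines, Y634F, Y750F and Y821F, the cells remain clustered, and in 4 lines, WT, Y643F, Y698F and Y726F, the islands disperse. This division comes from the study's imaging at 48 h and not from expression. Each line had 1 RNA-seq library in each of 3 treatments, so 21 of the 29 libraries of the series were used, 9 of clustered and 12 of dispersing lines. The other 8 libraries belong to parental PC9 (PAR), the AXL knock-out line (KO) and the kinase-dead line (KD), which are in neither class.

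PC9 is an established human lung adenocarcinoma line with an activating EGFR mutation. All 7 lines share the same background: AXL was disrupted by CRISPR-Cas9 with a guide at the kinase domain, and the KO cells then received by lentivirus either wild-type AXL (WT) or AXL with 1 tyrosine replaced by phenylalanine. They are pools sorted for GFP and not clones, and by the study's supplement only a minority of the transduced cells express AXL. Each library therefore averages AXL-expressing and AXL-negative cells of a pool. Cells were left untreated (UT), given the EGFR inhibitor erlotinib at 1 μM (E), or given erlotinib with the AXL-activating antibody AF154 at 300 ng/mL (EA), and RNA was taken after 24 h. With 1 library per line and treatment, the lines are the replicates, n = 3 against n = 4 in each treatment. The tests therefore ask whether the spread between classes exceeds the spread between lines, and the lines differ in their substitution, in their sorted pool and in AXL level at once. The same division separates the mutants whose motility AF154 raises from those in which it does not, so islands and motility cannot be told apart here. Proliferation nearly follows it too. By the study's account EA raised it over E in WT, Y698F and Y726F, and not in Y643F or the 3 clustered lines.

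AXL is a receptor tyrosine kinase of the TAM family. When activated it phosphorylates its own cytoplasmic tyrosines, which dock adaptors that lead to the actin cytoskeleton, focal adhesions, ERK and PI3K. Epithelial islands hold together through adherens junctions built on E-cadherin, desmosomes and tight junctions. Their break-up requires remodelling of those contacts together with actin-driven protrusion and integrin traction on the matrix. Both processes can be regulated on proteins without a change in mRNA.

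The tyrosine codons that define the mutant lines are shown because the class of a line is the class of its substituted site. AXL lies on chromosome 19 at 41219203 to 41261766 (GRCh38, plus strand), and the sites were located by translating the GENCODE 29 transcript of 4737 bases, which has 20 exons and encodes 894 residues. Each line gives the reference coding sequence, 5′ to 3′, with the tyrosine codon in capitals and 12 bases on either side.
Y634F (clustered, exon 16, chr19:41252941-41252943): agcttcctcctcTATtcccggctcggg
Y750F (clustered, exon 19, chr19:41257544-41257546): ggccaaaccccaTATccgggcgtggag
Y821F (clustered, exon 20, chr19:41259680-41259682): gacgaaatcctcTATgtcaacatggat
Y643F (dispersing, exon 17, chr19:41253599-41253601): gaccagccagtgTACctgcccactcag
Y698F (dispersing, exon 18, chr19:41256507-41256509): tccaagaagatcTACaatggggactac
Y726F (dispersing, exon 18, chr19:41256591-41256593): gctgaccgtgtcTACaccagcaagagc
The clustered sites do not lie together: Y634F is the first of the 6 along the protein and Y821F the last, and the dispersing sites Y643F, Y698F and Y726F fall between Y634F and Y750F. Y821F is in the C-terminal tail, which docks adaptors, and the other 5 are in the kinase domain. The sequences are those of the genome. The codons written into the vectors were not used here.

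Expression is given as TPM, a length-scaled share of each library's transcripts, summed over the transcripts of a gene, and differences as clustered minus dispersing on the log2(TPM + 1) scale, which understates the change of low genes. Matched genes held 97.0 to 97.3% of each library's TPM, and 8717 to 9305 genes reached 10 TPM in a library. Mitochondrial transcripts took 11.4 to 17.4% of TPM, with the highest share in Y821F EA. The libraries carried epithelial transcripts: 9 of 12 epithelial markers averaged 1 TPM or more, with summed levels of 8182 to 11382 TPM in clustered and 8426 to 11236 TPM in dispersing libraries, and the alveolar markers NKX2-1, SFTPB and SFTPC were the 3 below it. Of 18 markers of other cell types, 13 averaged under 1 TPM and the T cell marker CD3E was at 0 in all 21 libraries. Their sum, 192.6 to 369.4 TPM in clustered and 216.8 to 364.4 TPM in dispersing libraries, was carried mainly by TUBB3, CD68 and COL1A1.

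AXL itself did not separate the classes. In UT its level was 273, 423 and 297 TPM in Y634F, Y750F and Y821F, and 217, 311, 335 and 428 TPM in WT, Y643F, Y698F and Y726F. In E the corresponding levels were 488, 852 and 559 TPM against 408, 525, 666 and 807 TPM, and in EA 437, 849 and 481 TPM against 338, 493, 591 and 762 TPM. Y750F and Y726F, 1 line of each class, were the highest in every treatment and WT the lowest, and the classes overlapped throughout. The class means were 331 ± 80.7 TPM (SD, n = 3) and 323 ± 86.7 TPM (SD, n = 4) in UT. The log2 difference was 0.05 in UT, 0.08 in E and 0.11 in EA, with 95% intervals of −0.43 to 0.53, −0.42 to 0.57 and −0.50 to 0.71, and the two-sided exact permutation p over the 35 ways to place 3 of 7 lines was 0.914, 0.8 and 0.8286 (0.914 for each after adjustment over the 3). Leaving out Y750F turned the differences to −0.14, −0.16 and −0.19, and leaving out WT to −0.13, −0.09 and −0.10. The KO line still held 92.4 TPM in UT and 79.3 TPM in E, and the TPM do not separate transcript of the disrupted locus from that of the vector.

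Erlotinib was accompanied by higher AXL in every one of the 7 lines, by 0.92 ± 0.09 (SD, n = 3) in clustered and 0.89 ± 0.10 (SD, n = 4) in dispersing lines on the log2 scale. Adding AF154 to erlotinib was accompanied by a small difference below 0 in all 7, −0.13 ± 0.11 and −0.15 ± 0.09. Both changes are measured from the same E libraries.

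**Figure D1:**
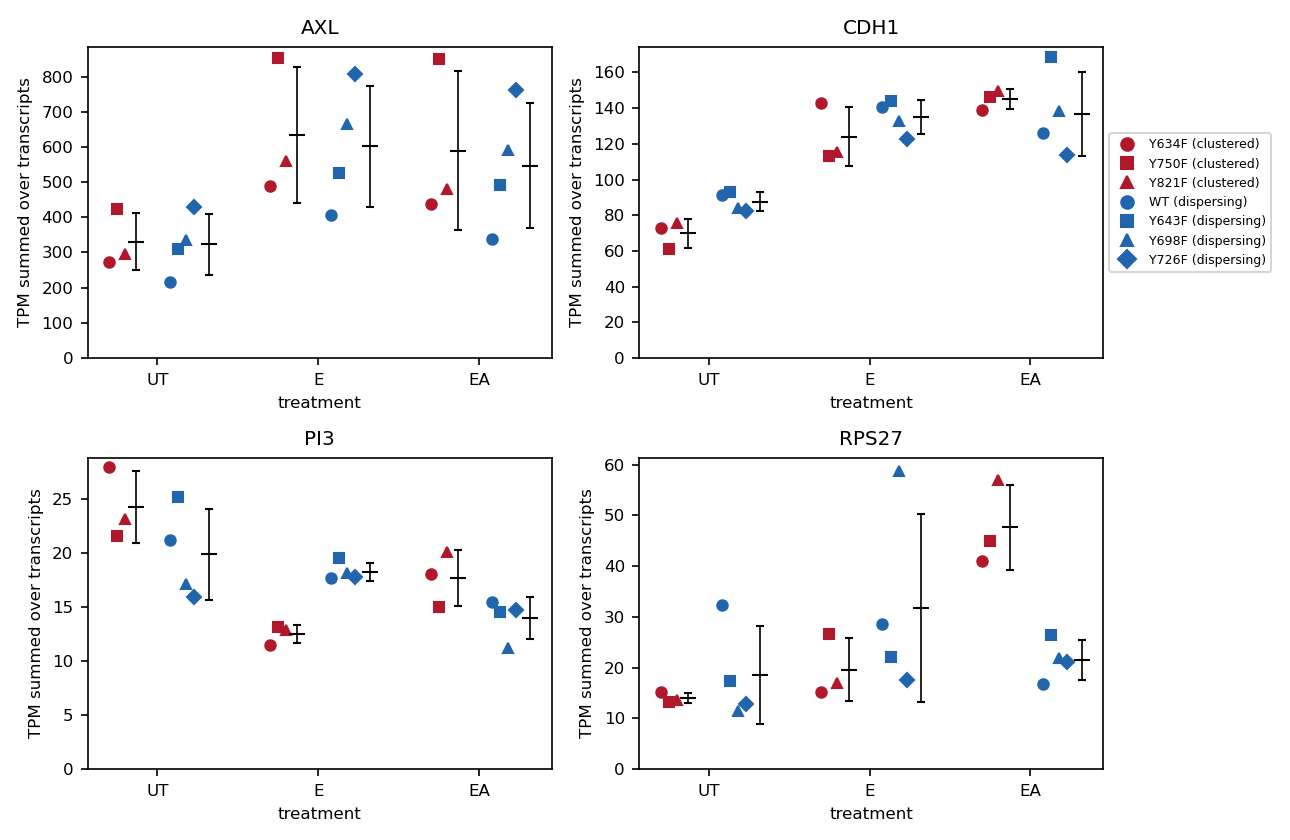
Level (TPM, linear vertical axis from 0) of AXL, CDH1, PI3 and RPS27 in each of the 7 lines under UT, E and EA, with 1 point per library, red for clustered and blue for dispersing lines, and bars for the class mean ± SD (n = 3 and n = 4). AXL overlaps between classes in every treatment, CDH1 lies lower in all 3 clustered lines in UT, PI3 lies lower in them in E and RPS27 higher in EA.

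The next question was whether the clustered lines resemble each other across the transcriptome more than they resemble dispersing lines. They did not measurably do so. Over the 9085 genes averaging 10 TPM or more, the mean distance between lines of different class exceeded that between lines of the same class by 0.94 in UT (25.2 against 24.3 log2 units, exact permutation p = 0.143), by 0.03 in EA (p = 0.371, exact) and was smaller by 1.18 in E (−1.18, exact permutation p = 1). Averaged over the treatments, lines of the same class were farther apart than lines of different class (−0.82, exact permutation p = 0.971). Here p is the share of the 35 placings whose separation was at least as high as that observed. In E no placing had a lower separation than the observed division. The smallest p these 7 lines can give is 0.0286. Adjusted over 6 comparisons, no p was below 0.729.

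A principal component analysis, after removal of each treatment's mean, showed which libraries carried the spread. The first component held 21.7% of the variance and the second 11.4%. Y821F EA scored 18.5 on the first, WT UT 13.7 and Y643F EA 13.4, against −12.8 for Y726F EA and −10.2 for Y698F EA. The positive extremes came from both classes. On the second component Y634F scored −7.77, −5.28 and −6.77 and Y643F −10.1, −12.3 and −6.33 in UT, E and EA, so the pair of lines that stood together below the others in all 3 treatments was 1 clustered and 1 dispersing line.

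**Figure D2:**
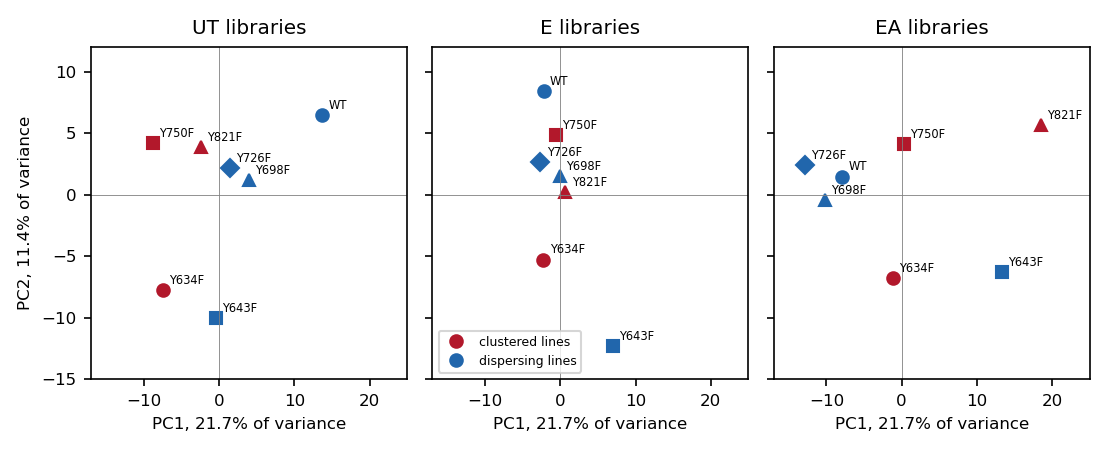
First and second principal component scores (axes, with the percent of variance) of the 21 libraries after subtraction of the treatment means, in 1 panel per treatment, red for clustered and blue for dispersing lines. Y821F EA stands farthest out on the first component, at 18.5, and Y634F and Y643F lie below 0 on the second in every panel.

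Across genes, no gene passed the limma test at an adjusted p under 0.05 in any of the 6 comparisons (0 of 9085, 0% in each). The smallest adjusted p was 0.556 in UT, 0.998 in E, 0.258 in EA, 0.999 in the mean of the treatments, 0.299 for the AF154 change (EA minus E) and 0.19 for the erlotinib change (E minus UT). At an unadjusted p under 0.05 there were 812 genes in UT (8.94%), 276 in E (3.04%), 383 in EA (4.22%), 197 in the mean (2.17%), 523 for the AF154 change (5.76%) and 534 for the erlotinib change (5.88%). UT had the highest share. The exact test over lines reached its smallest p in 413, 151, 222, 153, 289 and 264 genes in the same order. The median 95% interval of a gene's difference, before adjustment, extended 0.21 to either side in UT, 0.22 in E and 0.24 in EA. Differences of about that size on the log2 scale could therefore not be resolved for a typical gene. The adjusted threshold is stricter: differences of 2.06 for TSEN34 in UT and 1.11 for RPS27 in EA did not pass it.

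As a description, genes were counted whose 3 clustered lines all lay above, or all below, the 4 dispersing lines. In UT this held for 236 genes above (2.6%) and 631 below (6.95%), in E for 119 (1.31%) and 235 (2.59%), and in EA for 148 (1.63%) and 260 (2.86%). In the mean of the 3 treatments there were 72 above (0.793%) and 250 below (2.75%). For the AF154 change the clustered lines lay above in 345 genes (3.8%) and below in 227 (2.5%), and for the erlotinib change above in 340 (3.74%) and below in 262 (2.88%). The excess of lower genes depended on the scale: with each library centred on its median the counts became 426 and 360 in UT, 196 and 170 in E, 217 and 232 in EA, 153 and 151 in the mean, 235 and 326 for the AF154 change and 331 and 247 for the erlotinib change. The median difference over all genes was −0.03 in UT, −0.02 in E and −0.01 in EA.

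The genes that separated the classes in 1 treatment were not those of the next. No gene kept the classes apart in all 3 treatments, 50 did so in the same direction in exactly 2, and 38 did so in opposite directions. The largest group of the 50 was lower in clustered lines in both UT and E, 19 genes, against 2 that were higher. Taken singly, 6.95% of all genes lay below in UT, 2.59% in E and 2.86% in EA, and 2.6%, 1.31% and 1.63% above. How many genes would coincide in 2 treatments by those shares alone was not tested. Among the 19 were ARPC1A and ARPC3, subunits of the Arp2/3 complex that nucleates branched actin, LAMC1, the laminin gamma 1 chain, PARVA, which links integrin complexes to actin, and ERBB2, the partner receptor of EGFR. These 19 included no junction cadherin. Another 13 were lower in both E and EA, among them the cell-cycle genes AURKA and CCNE1 and the glycolytic enzyme LDHA, and 8 were higher. In UT and EA 8 genes were lower and 0 higher. ERBB2, CCNE1 and LDHA were picked out after their values were seen.

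Between UT and EA, which share no library, class differences ran in opposite directions more often than not. Across the 9085 genes their correlation was −0.374, and 39.3% of genes had the same sign. Of the 867 genes without overlap in UT, 26.2% kept their sign in EA. The correlation was 0.107 between UT and E and 0.0591 between E and EA, pairs that also share no library. Without Y821F the UT and EA correlation was −0.148 and 46.8% of genes had the same sign. Genes are not independent replicates, and these values describe these libraries.

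**Figure D3:**
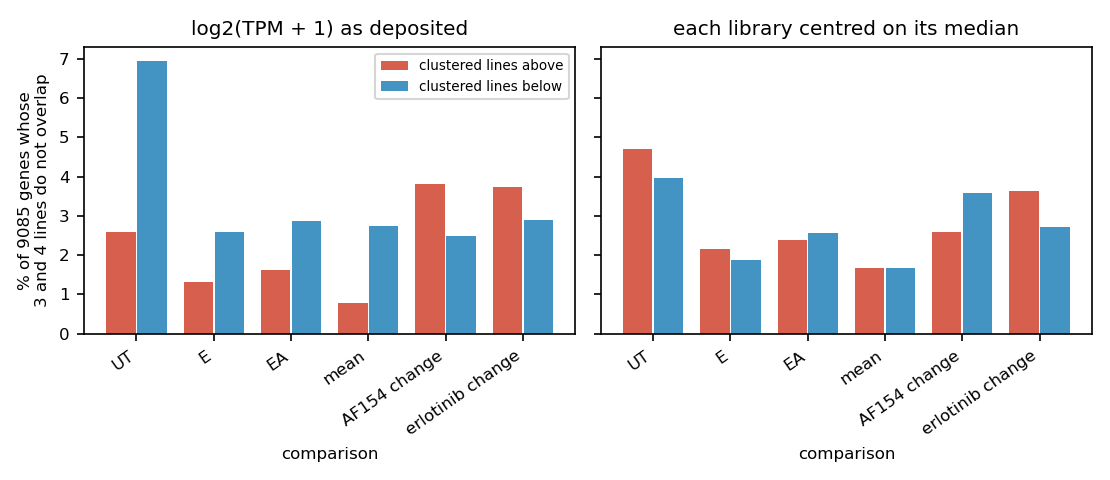
Percent of the 9085 genes (vertical axis) whose 3 clustered lines all lie above (red bars) or all below (blue bars) the 4 dispersing lines in each comparison, on log2(TPM + 1) at left and with each library centred on its median at right. In UT the bars are 2.6% above and 6.95% below at left and 4.69% above and 3.96% below at right.

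Cell-cell junction genes were examined first, since they hold islands together. None of the 13 adherens junction, 16 tight junction or 9 desmosome genes passed the test in any comparison. In UT more of them were lower than higher in clustered lines, 10 of 13, 11 of 16 and 7 of 9, where 61.3% of all genes were lower. Their median differences were −0.06, −0.09 and −0.13, against −0.03 for all genes. In EA, the treatment in which the lines differ in their islands, 9 of 13 adherens junction and 7 of 9 desmosome genes were higher and the medians were 0.05 and 0.02, while 9 of 16 tight junction genes were lower with a median of −0.02.

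CDH1, which encodes E-cadherin, separated the classes in UT without passing the test. In UT it stood at 72.8, 60.8 and 75.9 TPM in Y634F, Y750F and Y821F and at 91.3, 92.9, 84.1 and 82.2 TPM in WT, Y643F, Y698F and Y726F. Every clustered line was lower than every dispersing line. The difference was −0.33 ± 0.08 (SE, limma adjusted p = 0.556), with a 95% interval of −0.52 to −0.14 before adjustment. In EA the levels were 139, 146 and 150 TPM against 126, 169, 139 and 114 TPM. The classes overlapped there, with Y643F the highest of all 7 lines, and the difference of 0.10 had an interval of −0.16 to 0.36. CDH1 has a mean transcript length of 4451 bases, and among the 1817 longest genes the median UT difference was −0.08, with 250 genes below and 13 above without overlap. The part of transcript length in the CDH1 difference was not tested.

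DSP, the desmosomal plaque protein desmoplakin, had the same arrangement in UT, at 52.8, 51.8 and 55.7 TPM against 65.3, 59.4, 60.0 and 61.0 TPM (−0.20 ± 0.06 SE, limma adjusted p = 0.556). CLDN1, a tight junction claudin, stood at 12.2, 11.1 and 11.2 TPM against 14.1, 18.5, 13.6 and 13.9 TPM (−0.35 ± 0.12 SE, limma adjusted p = 0.556). CTNND1, p120 catenin that stabilises cadherins at the membrane, was another junction gene below in all 3 clustered lines in UT, by −0.15. In EA, DSP and CLDN1 overlapped, with differences of 0.02 and 0.10. DSP has a mean transcript length of 9230 bases, and the part of length in its UT difference was not tested.

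PKP4, a plakophilin-related armadillo protein of junctions, was among the genes of smallest p in EA. Its level was 47.8, 42.8 and 49.0 TPM in the clustered lines and 37.1, 36.8, 35.4 and 35.1 TPM in the dispersing lines. All clustered lines were higher, by 0.36 ± 0.08 (SE, limma adjusted p = 0.959), whereas in E the levels overlapped at 43.5, 38.2 and 38.8 TPM against 43.4, 38.6, 41.9 and 34.0 TPM. A retained-intron transcript of 452 bases was the single largest contributor to that difference, with 37.2% of it. MPDZ, a multi-PDZ scaffold of tight junctions, was the other junction gene above in all clustered lines in EA, by 0.21. ARVCF, a catenin of the p120 family, separated in E instead, at 25.5, 23.9 and 22.1 TPM against 18.5, 16.3, 18.8 and 17.8 TPM (0.40 ± 0.11 SE, limma adjusted p = 0.998).

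Genes of the actin cytoskeleton showed their largest differences before treatment. Of 29 genes for actin branching and protrusion, 23 were lower in clustered lines in UT and 25 in E, with medians of −0.09 and −0.05, and 13 in EA with a median of 0.01. Of all genes, 61.3% were lower in UT and 6.95% lay below without overlap. Without overlap in UT were 7 of the 29, all lower and none past the test: ARPC1A, ARPC2 and ARPC3 of the Arp2/3 complex, WASL, which activates it, NCKAP1 of the WAVE complex, ENAH, which extends filaments, and TWF1, which caps them. ARPC3 stood at 8.04, 8.07 and 8.18 log2(TPM + 1) in clustered lines and 8.42, 8.25, 8.26 and 8.25 in dispersing lines (−0.20 ± 0.06 SE, limma adjusted p = 0.556). TWF1 differed by −0.25 and NCKAP1 by −0.18. The list's AF154 change per line was 0.07, 0.07 and 0.06 in clustered lines and 0.05, 0.00, 0.02 and 0.01 in dispersing lines. The clustered lines lay above the dispersing lines, and the UT libraries do not enter that change. The E libraries, in which 25 of the 29 genes were lower in clustered lines, enter it with the opposite sign. A low level in E therefore raises this change by itself.

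Among 27 integrin and focal adhesion genes, 24 were lower in UT (median −0.05) and 11 in EA (median 0.01). ITGA6, the laminin-binding alpha 6 integrin, was below in E at 26.0, 27.4 and 23.1 TPM against 33.7, 29.7, 27.8 and 27.8 TPM (−0.21 ± 0.09 SE, limma adjusted p = 0.998). FAK (PTK2), BCAR1 and NEDD9, which relay integrin signals, overlapped between classes in every treatment.

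LAMC1 in the laminin and matrix list (17 genes) was the member of largest UT difference, at 77.1, 72.2 and 78.7 TPM against 113, 83.8, 95.1 and 92.1 TPM (−0.33 ± 0.09 SE, limma adjusted p = 0.556). It remained below in E by −0.09. In EA, the levels of 98.1, 114 and 109 TPM against 91.5, 99.9, 104 and 78.8 TPM overlapped with a difference of 0.20. The LAMC1 difference was below 0 in UT and above 0 in EA, as was that of CDH1. THBS1, a matricellular protein, was above in all clustered lines in EA, by 0.13.

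Receptor adaptors and kinases that AXL signals through were examined next. Of 25 Src, Abl and adaptor genes, 21 were lower in UT, where 61.3% of all genes were, and 6 lay below in all clustered lines, against 6.95% of all genes. None passed the test. Those were GAB1 (−0.36), SHC1 (−0.17), CRKL (−0.08), ELMO2 (−0.11), CAV2 (−0.15) and PTPN1 (−0.08). SRC and ABL1 themselves overlapped in each treatment. In E and EA the list was split, 10 and 12 of 25 lower. GRB2, the adaptor that brings SOS to receptors, was the member below in EA (−0.08).

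None of the genes in the remaining motility lists passed the test. Of all genes, 38.7% were higher in clustered lines in UT, 43.1% in E and 47.5% in EA. Of 16 epithelial-mesenchymal genes, 11 were lower in UT, 11 in E and 8 in EA. Of 20 pericellular protease genes, 16, 15 and 11 were lower, and of 24 ephrin, semaphorin and slit genes, 17, 11 and 16. Median differences in UT, E and EA were −0.04, −0.05 and −0.01 for the epithelial-mesenchymal list and −0.08, −0.05 and −0.03 for the proteases. Those of the ephrin list were −0.08, 0.01 and −0.04, and those of all genes −0.03, −0.02 and −0.01. ST14, the epithelial serine protease matriptase, was below in EA at 124, 121 and 101 TPM against 130, 129, 138 and 126 TPM (−0.18 ± 0.09 SE, limma adjusted p = 0.959). VIM and SNAI2, markers of mesenchymal state, overlapped in UT, E and EA.

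Targets of YAP and TAZ, cofactors that respond to cell contact and tension, were more often higher in clustered lines under erlotinib: 16 of 19 in E (median 0.06) and 14 of 19 in EA (median 0.04), where 43.1 and 47.5% of all genes were higher. In UT 9 of 19 were higher. CCN1, a classic target, stood at 241, 239 and 222 TPM against 219, 208, 238 and 210 TPM in E, with the classes overlapping, and none of the 19 separated them in E. F3, tissue factor (0.08), and TGFB2 (0.32) were above in all clustered lines in EA, and F3 was the 1 target below in all of them in UT. Without overlap, 1.63% of all genes lay above in EA and 6.95% below in UT. The other named targets and factors, CCN2, ANKRD1, YAP1 and WWTR1, also overlapped in all 3 treatments.

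ERK target genes were lower in E than in UT in all 7 lines, with a mean difference over 10 genes of −1.91 ± 0.16 (SD, n = 3) in clustered and −1.97 ± 0.06 (SD, n = 4) in dispersing lines. On adding AF154 the mean difference of the same list was 0.02, 0.04 and −0.11 in the clustered lines and −0.04, 0.25, 0.21 and 0.07 in WT, Y643F, Y698F and Y726F. The class means were −0.02 ± 0.08 and 0.12 ± 0.13. WT lay within the range of the clustered lines, so the classes overlapped. The 10 genes are those of 19 listed that passed the filter at 10 TPM, which left out DUSP6, SPRY4 and EGR1 among others. That filter averaged over UT libraries too, so genes high in UT could pass by it. Of the 10 genes, ETV5, a PEA3 family transcription factor, was the 1 that separated them, where 2.5% of all genes lay below and 3.8% above. Its AF154 change was −0.63, −0.59 and −0.28 in the clustered lines and 0.64, 0.28, 1.04 and −0.10 in the dispersing lines, a difference of −0.97 ± 0.26 (SE, limma adjusted p = 0.826). ETV5 overlapped between classes in E and in EA taken singly. Its class difference was 0.71 in E and −0.26 in EA, and the E libraries enter the change with the opposite sign.

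The list counts for TAM receptors and ligands (7 genes), interferon-stimulated genes (14), epithelial markers (8) and other cell type markers (3) included no gene that passed either. In EA 6 of 7 TAM genes, 6 of 14 interferon genes, 4 of 8 epithelial and 1 of 3 other markers were higher. GAS6, the AXL ligand, overlapped in every treatment.

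**Figure D4:**
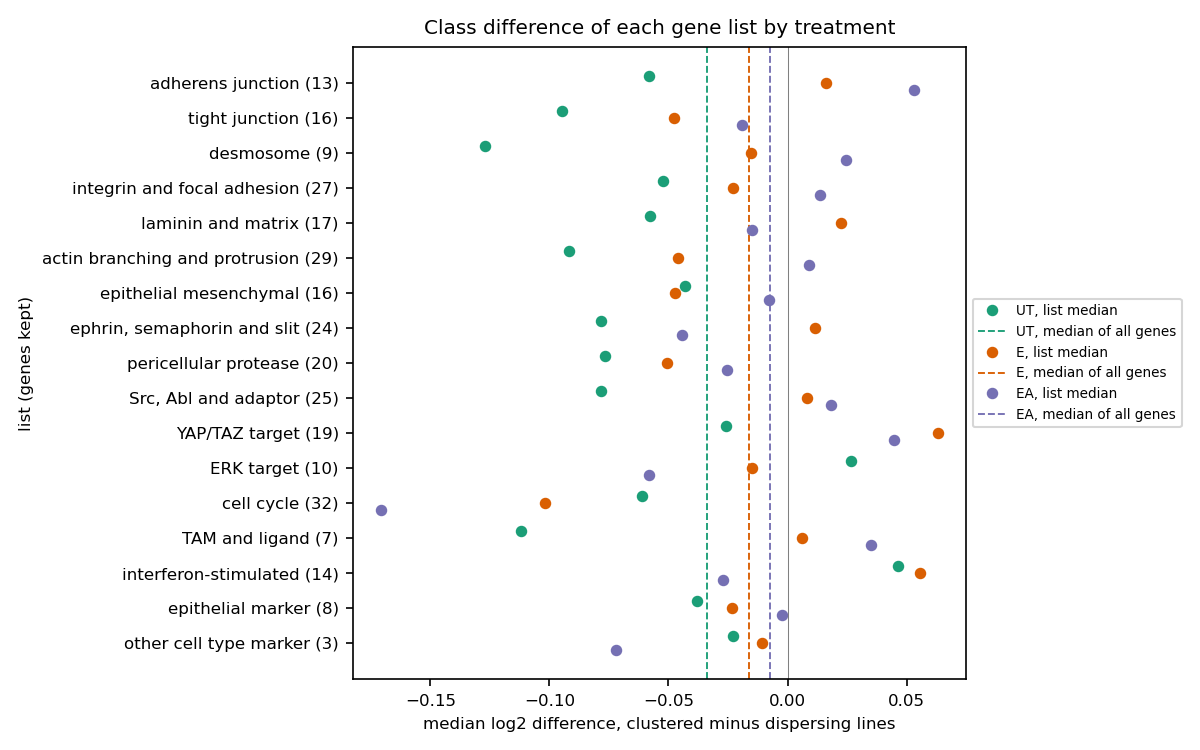
Median log2 difference, clustered minus dispersing (horizontal axis), over the kept genes of each list (rows, number of genes in brackets), with 1 colour per treatment and dashed lines at the median of all genes. Most lists lie below 0 in UT and nearer 0 in EA, while the cell-cycle list goes from −0.06 in UT to −0.17 in EA.

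Cell-cycle genes differed from that pattern. Of 32, 23 were lower in clustered lines in UT, 29 in E, 29 in EA and 31 in the mean of the treatments, where 63.9% of all genes were lower. The median difference was −0.06, −0.10, −0.17 and −0.10. None passed the test. With libraries centred on their medians 29 of 32 were lower in the mean, and leaving out each line in turn left 27 to 32 lower. The members of a list that is coexpressed move together, so these counts are not 32 separate observations.

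The level of the list per line shows where the classes met. Its mean log2(TPM + 1) in EA was 5.51, 5.46 and 5.31 in Y634F, Y750F and Y821F and 5.54, 5.496, 5.69 and 5.54 in WT, Y643F, Y698F and Y726F. In E it was 5.19, 5.18 and 5.08 against 5.39, 5.15, 5.27 and 5.26. Y643F lay within the clustered range in both treatments and the other 3 dispersing lines lay above it. In the study's imaging, Y643F was also the dispersing line whose proliferation EA did not raise over E. The part of proliferation in the class differences of this list was not tested. In UT the values were 6.74, 6.78 and 6.77 against 6.86, 6.74, 6.83 and 6.79.

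Genes of the list without overlap in the mean of the treatments were CDC6 and MCM3, which load and form the replicative helicase, and AURKA and TPX2, the mitotic kinase and its activator. Of all genes, 2.75% lay below without overlap in the mean, 2.59% in E and 6.95% in UT. Above without overlap were 0.793%, 1.31% and 2.6% in the same order. CDC6 stood at 7.47, 6.92 and 6.13 TPM in clustered and 8.56, 10.1, 7.72 and 7.36 TPM in dispersing lines in E, and at 11.9, 9.03 and 9.74 TPM against 11.6, 13.98, 13.4 and 13.3 TPM in EA. The classes overlapped in both treatments singly, and the mean difference was −0.24 ± 0.07 (SE, limma adjusted p = 0.999). AURKA, MCM3 and TPX2 differed by −0.15, −0.12 and −0.12 with the same adjusted p. PCNA, the replication clamp, was below in all clustered lines in E, at 75.1, 69.6 and 67.2 TPM against 89.3, 82.3, 79.0 and 81.2 TPM (−0.23 ± 0.06 SE, limma adjusted p = 0.998). MKI67, the proliferation marker, was below in UT, at 59.3, 55.5 and 61.4 TPM against 76.8, 62.8, 66.4 and 67.2 TPM, and overlapped in E and EA. CENPF of the same list was also below in UT, while AURKB, a mitotic kinase (0.16 ± 0.05 SE), and TK1, a thymidine salvage enzyme (0.15 ± 0.06 SE), lay above in all clustered lines, each with a limma adjusted p of 0.556.

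The difference of the list between EA and E overlapped between classes. Its mean change from E to EA was above 0 in all 7 lines, at 0.32, 0.28 and 0.23 in clustered lines and 0.15, 0.35, 0.41 and 0.28 in dispersing lines, with WT the lowest. The class means were 0.28 ± 0.04 (SD, n = 3) and 0.30 ± 0.11 (SD, n = 4).

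Of the single genes with the smallest p in UT, 4 lay above and 4 below in clustered lines. TSEN34, a subunit of the tRNA splicing endonuclease, stood at 22.8, 12.8 and 18.1 TPM in clustered lines and 7.91, 2.87, 3.74 and 1.37 TPM in dispersing lines, a difference of 2.06 ± 0.38 (SE, limma adjusted p = 0.556). It overlapped in E, at 2.61, 11.5 and 2.83 TPM against 17.1, 14.3, 2.01 and 4.04 TPM. The others above were ENSG00000144785 (0.77), TMEM256 (0.55) and PELP1 (0.28). Below were PLA2G12A (−0.61), DMTF1 (−0.64), ALPK1 (−0.67) and AKAP9, a centrosomal and Golgi scaffold (−0.54), all with an adjusted p of 0.556.

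In E the genes above were TRPT1, a tRNA phosphotransferase (0.33), DPY19L3 (0.45), ARVCF and the histone methyltransferase KMT5A (0.33). Those below were PI3 (−0.51), CYB5B (−0.58), ZNF778 (−0.78) and GFUS (−0.41), an enzyme of GDP-fucose synthesis. All had a limma adjusted p of 0.998. PI3, elafin, an epithelial elastase inhibitor, stood at 11.5, 13.1 and 12.9 TPM in clustered lines and 17.7, 19.5, 18.2 and 17.8 TPM in dispersing lines. The classes did not overlap, and KD (23.4 TPM) and KO (29.6 TPM) lay beyond the dispersing lines.

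In EA the smallest p belonged to RPS27, a ribosomal protein gene, at 41.0, 44.9 and 56.9 TPM against 16.8, 26.4, 21.9 and 21.1 TPM (1.11 ± 0.16 SE, limma adjusted p = 0.258). KD stood at 56.3 TPM, beside the clustered lines. With array quality weights its limma adjusted p was 0.0438, and with KD counted as clustered 0.0376, and it was then the only gene called in EA. Its difference was all in 1 transcript of 359 bases, which was listed at 0 in 3 of the 7 libraries. RPS27 has near-identical pseudogene copies, so its values are uncertain. The other genes above were TIMM9, a mitochondrial import chaperone (0.45), PKP4 and YEATS4, a chromatin reader (0.49). Below were WDR90 (−0.52), ATP5MC1, a subunit of ATP synthase (−0.32), CAND1, an exchange factor for cullin ligases (−0.33), and SECTM1 (−0.51), each with a limma adjusted p of 0.959. CAND1 was even within classes, at 62.8, 63.8 and 61.7 TPM against 87.8, 78.2, 76.9 and 74.3 TPM.

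The AF154 change was then compared, since AF154 is the treatment by which the lines were divided. Its total size, the root mean square over 9085 genes of EA minus E, was 0.239, 0.247 and 0.339 in Y634F, Y750F and Y821F and 0.239, 0.291, 0.227 and 0.237 in WT, Y643F, Y698F and Y726F. The class means of 0.275 ± 0.0558 (SD, n = 3) and 0.248 ± 0.0288 (SD, n = 4) did not differ beyond their spread (exact permutation p = 0.486), and without Y821F the difference turned to −0.01. Y821F EA, the library farthest out in the component analysis, gave the largest of the 7 values.

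Several of the genes with the smallest p had changes of opposite sign in the 2 classes. The log2 change of PI3 from E to EA was 0.60, 0.18 and 0.60 in Y634F, Y750F and Y821F and −0.18, −0.40, −0.65 and −0.25 in WT, Y643F, Y698F and Y726F, a difference of 0.83 ± 0.16 (SE, limma adjusted p = 0.826). Its EA levels, 18.1, 14.99 and 20.1 TPM against 15.5, 14.6, 11.2 and 14.8 TPM, overlapped, and the same E libraries that gave the E difference enter this change. ZMYM2, a zinc-finger chromatin protein, gave 0.44, 0.49 and 0.32 against −0.01, −0.20, −0.12 and −0.06.

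The smallest p for the AF154 change was that of ANO7L1, at −0.97, −1.41 and −1.42 against 0.44, 0.23, −0.18 and 0.31 (−1.47 ± 0.20 SE, limma adjusted p = 0.299). RPS27 (1.67) and NAPRT (0.84), an NAD synthesis enzyme, also lay above in all clustered lines, and SECTM1 (−0.79) and ZNHIT3 (−1.66) below. Of the 31 named genes of junction, motility and AXL signalling, 26 had a higher change in clustered lines, where 52.2% of all genes did. By mean transcript length, that share was 38.4% among the 1817 shortest and 64.1% among the 1817 longest genes. The part of transcript length in the count of 26 was not tested. Of the 31, only SNAI2 lay above in all clustered lines, against 3.8% of all genes, at 0.16, 0.15 and 0.15 against −0.15, −0.33, 0.14 and −0.16 (0.28 ± 0.13 SE, limma adjusted p = 0.826). Y698F was close to the clustered lines and the other 3 dispersing lines were below 0. The class difference of SNAI2 was −0.25 in E and 0.03 in EA, with overlap in both. The same E libraries enter this change with the opposite sign.

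The erlotinib change had a total size of 0.734 ± 0.0362 (SD, n = 3) and 0.711 ± 0.0206 (SD, n = 4), with an exact permutation p of 0.343. It shares its E libraries with the AF154 change, with the opposite sign, so a gene high or low in E enters both. The smallest p was that of ENSG00000144785, at −0.74, −0.70 and −0.29 in clustered and 0.41, 0.34, 0.47 and 0.24 in dispersing lines (−0.94 ± 0.13 SE, limma adjusted p = 0.19). Without Y821F its adjusted p was 0.0415 in limma, and it was the only gene called in that fit. Every clustered line had a negative and every dispersing line a positive change.

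FGFR1, a receptor tyrosine kinase that can act beside EGFR, had erlotinib changes of 0.68, 0.56 and 0.73 in clustered lines and 0.05, 0.18, 0.24 and −0.01 in dispersing lines (0.54 ± 0.10 SE, limma adjusted p = 0.692). Its levels in E were 44.2, 43.1 and 38.6 TPM against 33.6, 28.8, 37.4 and 35.1 TPM, and in EA they overlapped at 37.1, 33.5 and 24.97 TPM against 26.1, 27.8, 29.7 and 31.3 TPM. KD and KO had 24.6 and 24.7 TPM in E, below both classes. TRPT1 (0.58), the histone methyltransferase EHMT1 (0.40) and LYPLA1 (0.47), which removes palmitate from proteins, also lay above, and GFUS (−0.58), SLC26A1 (−0.89) and APOL3 (−0.71) below. DSP (0.16), FN1, fibronectin (0.25), and YAP1 (0.12) were the 3 of 31 named genes above in all clustered lines, against 3.74% of all genes, and for DSP the UT level was the lower one.

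The UT difference moved with transcript length. Genes were ordered by mean transcript length and split into 5 groups of 1817. In UT the median class difference went from 0.03 in the shortest group (up to 1290 bases) to −0.08 in the longest (from 3465 bases). Of the genes below in all clustered lines, 46 were in the shortest and 250 in the longest group, and of those above, 124 and 13. LAMC1 (5604 bases) and MKI67 (12022 bases), named above as lower in UT, are in the longest group, as are CDH1 and DSP. CLDN1 (3258 bases) is not. In E the medians were −0.00386 and −0.03, and in EA −0.05 and 0.02, the reverse order.

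Per library, the longest group's median deviation minus the shortest group's was −0.08, −0.10 and −0.04 in clustered UT libraries and 0.13, 0.00, 0.04 and 0.03 in dispersing ones, without overlap. In EA it was −0.02, −0.01 and 0.14 against −0.06, 0.10, −0.04 and −0.12, with Y821F and Y643F highest. With a smooth trend on length removed from each library, 0 of 9085 genes were called in every comparison and the non-overlapping genes numbered 187 above and 562 below in UT and 139 and 263 in EA. The correlation of UT with EA differences was then −0.354. The part of library preparation or RNA integrity in this length pattern was not tested.

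**Figure D5:**
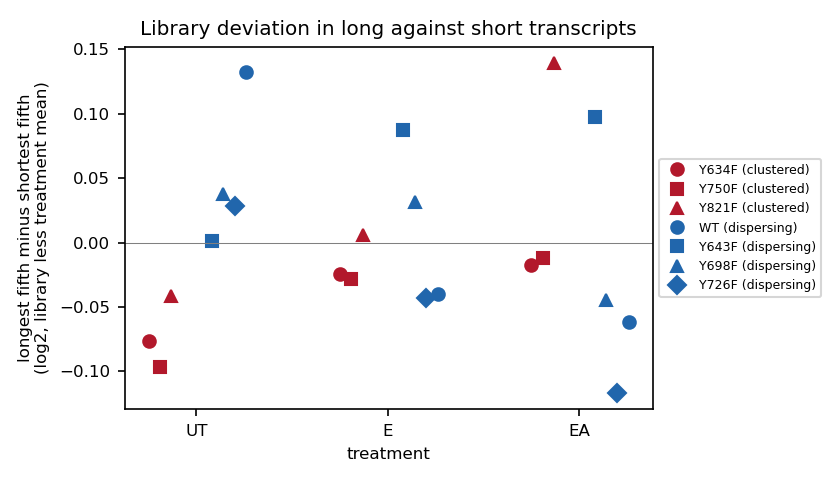
For each library, the median deviation from the treatment mean over the longest 1817 genes minus that over the shortest 1817 (log2, vertical axis) by treatment, with 1 point per line, red for clustered and blue for dispersing lines. In UT the clustered libraries lie at −0.08, −0.10 and −0.04, below all dispersing ones, and in EA Y821F is the highest at 0.14.

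Transcript-level values bore on the single genes. For the 40 pairs of gene and comparison named by smallest p, the transcript contributing most to the difference was shorter than 1000 bases in 36, was not protein coding in 16 and was listed at 0 in at least 1 library in 22. It carried at least 90% of the gene's difference in 14. A transcript of 853 bases held 99.2% of the TSEN34 difference in UT. ENSG00000144785, whose difference was carried by a transcript of 512 bases, is a locus named by its identifier only. PI3 had 1 transcript in the table, of 577 bases, so no split between transcripts could be seen there.

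Lines outside both classes gave a view from libraries that had not chosen the genes. In UT, KD lay nearer to the clustered mean in 75.5% of the 867 non-overlapping genes and in 62.3% of all genes, and KO in 51.3% and 49.7%. In E the shares were 61.6% and 54.2% for KD, and 63.0% and 52.6% for KO. In EA, where KO has no library, KD was nearer to the clustered lines in 52.7% of 408 genes and in 49.95% of all genes. The share for KD was highest in UT and in EA was close to that over all genes.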

How the data were processed

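Libraries of 7 transduced PC9 lines under UT, E and EA were analysed, with 1 library per line and treatment. The authors deposited 1 table of transcript abundances as TPM for 29 libraries, and per the submitters' processing notes kallisto and GRCh38 were used. Read counts were not used here, so depth per library is unknown and no counting interval is given. The 188753 transcripts were matched to GENCODE 29 by identifier (169797 matched) and summed to 35579 genes. Genes averaging 10 TPM or more over the 29 libraries were kept (9085), a filter the study's methods also apply, and log2(TPM + 1) was tested with limma 3.58.1 in R 4.3.3, with a mean-variance trend and Benjamini-Hochberg adjustment at 0.05, separately for UT, E, EA, their mean per line, EA minus E, and E minus UT. Nothing in the labels states that the libraries of a line came from separate cultures. For the AXL level, the size of the changes and single genes, a two-sided exact permutation test over the 35 placings of 3 of 7 lines was used. For the separation of the classes the exact p was one-sided and counted placings with a value at least as high. The procedure was tested on simulated data.

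Members, the gene lists and the rules were chosen with earlier results of these data known. Named genes were AXL, a set of 31 kept junction, motility and signalling genes (32 listed), the genes of smallest limma p without overlap (up to 4 in each direction per comparison), and for each list the members that separated the classes in all 3 treatments or otherwise the 2 of smallest p in the mean. List members without overlap in 1 comparison were named in addition, after their values were seen. A few genes and 1 list are not reported here. Alternatives were pseudocount 0.1, no filter or 1 TPM, median centring, quantile normalization, a robust spread model, the same filter over the 21 libraries, array weights, KD counted as clustered, removal of a length trend (loess, span 0.5), a line block, and leaving out each line.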

Additional observations from a re-analysis of the deposited data

Results flagged for a closer look

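The first 4 values were picked out because every clustered line had a change of one sign and every dispersing line the other. For the AF154 change these were PI3 (clustered minus dispersing 0.83 on the log2 scale), ZMYM2 (0.51) and ZNHIT3 (−1.66), and for the erlotinib change ENSG00000144785 (−0.94). Their differences between classes did not pass the limma threshold over all genes. The genes had been named for their small p without overlap, so the opposite signs are a description.

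Single dispersing lines stood apart from the other 3 in 6 of 112 measures, and chance gives about 1 in 20. The level in log2(TPM + 1) of Y643F was 5.97 for ITGAV in the mean of the treatments, 4.90 for PLA2G12A in UT, 6.68 for TJP1 in EA and 8.08 for NEDD9 in EA. That of Y726F was 3.40 for LTBP1 in the mean of the treatments and 7.12 for ITGB4 in EA. ITGAV is a matrix-binding integrin chain, TJP1 the tight junction scaffold ZO-1, and NEDD9 a focal adhesion scaffold.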

How the results depend on the processing

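The number of genes called stayed at 0 in all 6 comparisons under pseudocount 0.1, the filter over the 21 libraries, median centring, quantile normalization and the robust spread model, and under removal of the length trend, which was chosen after seeing the data. With no filter 1 gene was called in UT, 2 in E, 7 in EA, 2 in the mean and 1 for the AF154 change, and with a filter at 1 TPM 1 in E. In EA array weights called 1 gene and counting KD as clustered 1, RPS27 in both. Leaving out lines gave 0 to 1 genes for the erlotinib change, the 1 without Y821F. A fit over all 21 libraries with line as a block called 0 (smallest limma adjusted p 0.999). The cause of these shifts was not tested.

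Separation turned to −0.17 for the AF154 change with pseudocount 0.1 and −0.0612 at 1 TPM, to −0.0938 for EA at 1 TPM, and to −0.10 and −0.17 for the erlotinib change with pseudocount 0.1 and quantile normalization. With lines left out it ranged from −1.71 (without Y821F) to 1.76 (without Y643F) for the AF154 change, from −2.10 (without Y821F) to 2.87 (without Y643F) for EA, and from −0.84 (without Y750F) to 1.58 (without Y643F) for the erlotinib change. The AXL difference ranged from −0.14 to 0.20 in UT, −0.16 to 0.24 in E, −0.19 to 0.29 in EA and −0.16 to 0.24 in the mean, and the size of the AF154 change from −0.00533 to 0.0450. Non-overlapping genes numbered 1064 to 1868 in UT, 625 to 1068 in E, 607 to 1586 in EA and 0 to 13 in all 3 treatments. Fewer lines alone raise such counts.

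Of 1036 named-gene values under other settings 1020 kept direction and call and 14 changed sign. With KD as clustered these were AXL (−0.0302 in EA, −0.0628 in the mean) and in EA CCN2 (−0.0204), CLDN1 (−0.0164), ITGB1 (−0.00842) and VIM (−0.0827). With the length trend removed DSP (−0.00782) and ITGB4 (−0.0143) turned in EA, and with array weights ITGB4 (−0.0294), PLAUR (0.0294), SNAI2 (−0.0262) and SRC (0.0541). SRC was 0.0016 with median centring and 0.0129 with quantile normalization. With lines left out, 699 of 728 values kept theirs. Ranges that crossed 0 in EA were CCN2 −0.0349 to 0.11, CLDN1 −0.0439 to 0.30, DSP −0.00579 to 0.0551, EPHA2 −0.21 to 0.0711, ITGB1 −0.0157 to 0.10, ITGB4 −0.0629 to 0.0554, MKI67 −0.0917 to 0.0316, PLAU −0.29 to 0.0708, PLAUR −0.0983 to 0.0504, PTK2 −0.0994 to 0.0283, SNAI2 −0.0378 to 0.12, SRC −0.0577 to 0.0515 and VIM −0.11 to 0.29, and in the mean GAS6 −0.13 to 0.0363 and TUBB3 −0.11 to 0.0371. Depth was unknown, and 3 against 4 lines set the precision.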
